A study of Homo sapiens with 4 samples.

Results

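The kinetochore is the protein assembly that forms on each centromere and ties the chromosome to spindle microtubules. Its inner layer, the constitutive centromere-associated network (CCAN), sits on nucleosomes that carry the histone CENPA, and its outer layer, made of KNL1, the MIS12 complex and the NDC80 complex, holds the microtubule. The spindle assembly checkpoint is the signal that unattached kinetochores send to delay anaphase, and it runs through the kinases TTK and BUB1 and the proteins BUB1B, BUB3 and MAD2L1. Most of these messages are made in dividing cells, with the highest levels in G2 and mitosis.

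The 37 messages described here are the genes for these proteins, taken by gene symbol from a table of 24483 genes, of which 14468 were protein-coding. They were selected on their function with earlier results of these data in view, and the rule set no threshold on their values. All 37 symbols had a row in all 4 libraries. In 31 of them the level reached 1 FPKM, a read density scaled to gene length and library size, in at least 1 library. CENPN, CENPO, CENPP, CENPT, MAD2L1 and KNTC1 stayed below 1 FPKM in every library.

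The libraries came from PANC-1, an established line of human pancreatic ductal adenocarcinoma labelled as wild-type. For 24 h the cells had 30 mM sodium lactate in their medium or, as vehicle, added water. RNA was pulled down from lysates with an antibody against NSUN2, a methyltransferase that places 5-methylcytosine on RNA, and the series title ties this mark to lactate-derived lactylation and to tumour growth along nerves. The 4 groups were the lactate IP, the lactate input, the vehicle IP and the vehicle input, with 1 library each, from 1 line and 1 antibody, and a pull-down with a control antibody was not analysed here. With 1 library per group no difference has a replicate check, no test was run, and intervals below are 95% counting intervals, which cover counting error only.

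Recovered totals lay between 11175432 reads in the lactate input and 17626197 reads in the vehicle input. The mitochondrial ribosomal RNA MT-RNR2 took 83.7% of reads in the lactate IP, 55.1% in the lactate input, 68.0% in the vehicle IP and 41.0% in the vehicle input. Reads of nuclear genes were 13.9% of the lactate IP, 20.9% of the lactate input, 30.3% of the vehicle IP and 31.3% of the vehicle input. FPKM is set against the whole library, so this share moves the FPKM of every nuclear gene between libraries, and values below are given beside the median of all genes. Of 8 markers of the ductal adenocarcinoma line, all had a row, and 5 reached 1 FPKM in each IP and 6 in each input. Their summed level was 178 FPKM in the lactate IP, 240 in the lactate input, 523 in the vehicle IP and 392 in the vehicle input. Rows were also found for 3 of 5 fibroblast, 2 of 4 immune, 2 of 3 endothelial and 0 of 4 acinar and islet markers. Immune markers summed to at most 0.241 FPKM and endothelial markers to at most 0.0147 FPKM in any library, and of the fibroblast markers COL1A1 alone reached 1 FPKM.

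In both conditions most kinetochore and checkpoint messages had a lower ratio of NSUN2 IP over input than the median gene, and a few, led by CENPF and SPC24, had a higher one. Changes are log2 ratios of FPKM + 1, for genes with at least 1 FPKM in at least 1 of the libraries compared, and a gene is counted at a ratio of at least 1 or at most −1, that is, 2-fold. In lactate cells 29 members entered the comparison of IP over input, of which 0 were counted as higher and 16 as lower, where 16% of all 7170 genes were higher and 23.3% lower. Their median ratio was −1.1, against −0.10 for all genes. In vehicle cells 31 members entered, with 4 higher and 10 lower, where 27.6% of all 9099 genes were higher and 15.3% lower, and their median was −0.57, against 0.44 for all genes. Set against the median gene, 0 members were higher and 14 lower in lactate cells, where 19.3% of all genes were higher and 20.5% lower. On the same basis 1 member was higher and 16 lower in vehicle cells, where 12.4% of all genes were higher and 23.9% lower. With FPKM rescaled to equal totals of nuclear genes the split in lactate cells was 4 higher and 9 lower of 31 members, where 30.5% of all genes were higher and 14.2% lower. Over all 37 members, with no filter on their level, 26 lay below and 11 above the median of the filtered genes (−0.10) in lactate cells. In vehicle cells 29 lay below and 8 above that median (0.44), and the pseudocount draws members with few reads toward 0, below it. With the filter dropped for all genes as well, the members' median was −0.64, against 0.03 for all genes, in lactate cells. In vehicle cells it was −0.35, against 0.08 for all genes.

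Most members stood on the same side of the median gene in both conditions, about as often as all genes did. The members' side was mostly the lower one. Of 29 members that entered both comparisons, 22 lay below the median gene in lactate and in vehicle cells, 4 lay above it in both, and 3 (CENPE, DSN1 and KNL1) were split, where of all 6824 genes that entered both 46.7% lay below it in both, 42.6% above it in both and 10.7% on different sides. Of these 29, 10 were at least 2-fold lower in the IP in both conditions and 0 were at least 2-fold higher in both, where 15.9% of all genes were lower and 13.1% higher in both. Entry itself favoured one side for some members. In lactate cells CENPM and PMF1, above the median gene, reached 1 FPKM in the IP but not in the input, and 7 members below it (BUB1, CENPA, CENPH, CENPU, MIS12, NSL1 and SKA3) reached it in the input but not in the IP. In vehicle cells ZW10 reached it in the IP but not in the input, and CENPA and CENPU in the input but not in the IP. On ratios without a pseudocount, the counting interval lay wholly below the median gene for 21 of 29 members in lactate cells and for 23 of 31 in vehicle cells, and wholly above it for 5 members in lactate cells and 6 in vehicle cells. The share of all genes with such intervals was not worked out, so these counts describe the members only.

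**Figure D1:**
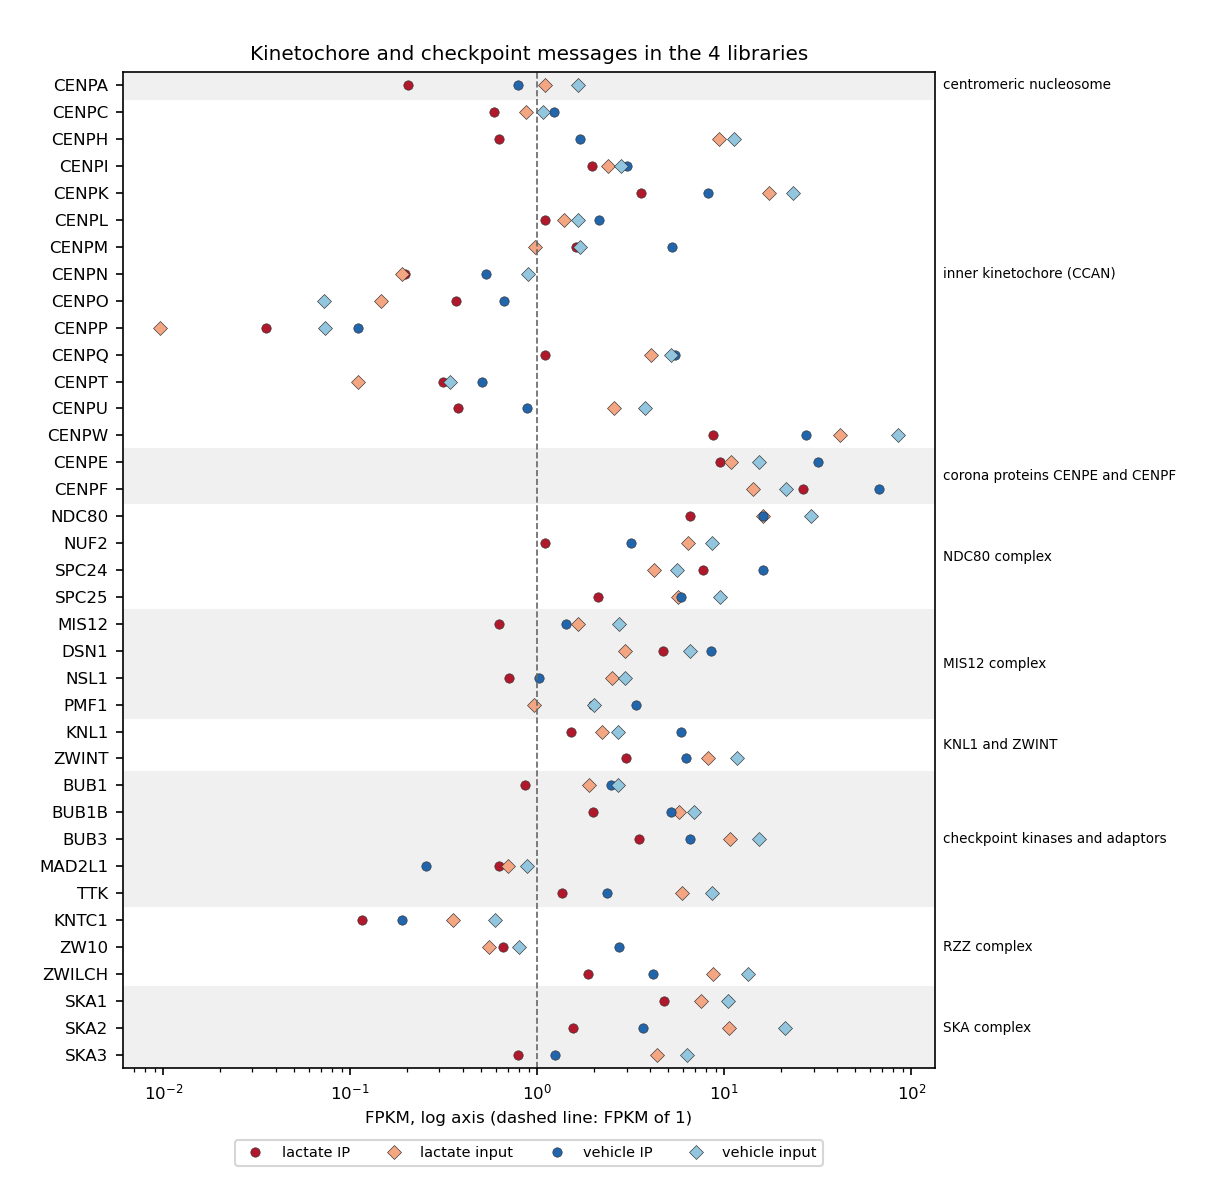
Level of each of the 37 messages in FPKM on a log axis, with the lactate libraries in red and orange and the vehicle libraries in blue, 1 point per library and rows grouped by complex. In many rows, such as CENPH, TTK and SKA2, both IP points lie left of both input points, while CENPF and SPC24 have each IP point right of its input; the PMF1 point of the lactate IP, at 1.99 FPKM, lies under that of the vehicle input, at 2.0.

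Among inner kinetochore messages, the CENPH, CENPK, CENPU and CENPW messages were low in both IPs and CENPM was high in the vehicle IP. CENPA, the histone H3 variant that marks the centromere, had 0.203 FPKM in the lactate IP and 1.1 in the lactate input, with 0.791 in the vehicle IP and 1.66 in the vehicle input. CENPA was lower in each IP than in its input, at log2 ratios of −0.81 in lactate cells and −0.57 in vehicle cells. Its reads were few, with 6 in the lactate IP and 24 in the lactate input.

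CENPC, which binds CENPA nucleosomes and reaches out to the MIS12 complex, had 0.589 FPKM in the lactate IP and 0.874 in the lactate input, with 1.24 in the vehicle IP and 1.07 in the vehicle input. Its lactate libraries were both below 1 FPKM, and its vehicle IP stood just above its vehicle input, at a log2 ratio of 0.11. CENPH, CENPI, CENPK and CENPM form 1 subcomplex of the CCAN. CENPH had 0.623 FPKM in the lactate IP and 9.32 in the lactate input, with 1.69 in the vehicle IP and 11.2 in the vehicle input. Both IP values lay far below both inputs, at −2.67 in lactate cells (−3.9 without a pseudocount, with a counting interval of −4.62 to −3.26) and at −2.18 in vehicle cells (−2.73 without a pseudocount, with a counting interval of −3.18 to −2.31). CENPK had 3.59 FPKM in the lactate IP and 17.2 in the lactate input, with 8.18 in the vehicle IP and 23.3 in the vehicle input. Its pattern was that of CENPH, with −1.99 in lactate cells and −1.4 in vehicle cells. Their partner CENPI had 1.97 FPKM in the lactate IP and 2.4 in the lactate input, with 3.01 in the vehicle IP and 2.8 in the vehicle input, and there the IP and the input of each condition were close, at −0.19 in lactate cells and 0.08 in vehicle cells. CENPM, the fourth of the subcomplex, had 1.62 FPKM in the lactate IP and 0.972 in the lactate input, with 5.24 in the vehicle IP and 1.69 in the vehicle input. It was the reverse of CENPH, with the vehicle IP at the top, and its ratio was 0.41 in lactate cells and 1.22 in vehicle cells (1.64 without a pseudocount, with a counting interval of 1.16 to 2.13).

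CENPW is the histone-fold partner of CENPT, and its message had the highest FPKM of the 37 in both inputs. It had 8.71 FPKM in the lactate IP and 41.5 in the lactate input, with 27.4 in the vehicle IP and 84.8 in the vehicle input. Each IP held less of it than its input, at −2.13 in lactate cells (−2.25 without a pseudocount, with a counting interval of −2.57 to −1.95) and −1.59 in vehicle cells (−1.63 without a pseudocount, with a counting interval of −1.81 to −1.45). CENPL, which pairs with CENPN at CENPA nucleosomes, had 1.1 FPKM in the lactate IP and 1.39 in the lactate input, with 2.13 in the vehicle IP and 1.66 in the vehicle input, at −0.19 in lactate cells and 0.24 in vehicle cells. CENPQ and CENPU belong to the subcomplex of CENPO and CENPP. CENPU had 0.378 FPKM in the lactate IP and 2.57 in the lactate input, with 0.885 in the vehicle IP and 3.76 in the vehicle input, lower in each IP than in its input at −1.37 in lactate cells and −1.34 in vehicle cells. CENPQ had 1.1 FPKM in the lactate IP and 4.06 in the lactate input, with 5.48 in the vehicle IP and 5.21 in the vehicle input, and only its lactate IP stood apart from the other 3 libraries, with 29 reads. In the inner kinetochore as a whole, 13 members with CENPA left aside, 8 entered the lactate comparison with 0 higher and 5 lower. Of all genes 16% were higher and 23.3% lower there. In vehicle cells 9 entered, with 1 higher and 4 lower, where 27.6% of all genes were higher and 15.3% lower. CENPN, CENPO, CENPP and CENPT ranged from 0.0096 FPKM (CENPP in the lactate input, 1 read) to 0.889 FPKM (CENPN in the vehicle input).

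CENPE and CENPF, large coiled-coil proteins of the outer corona, had the messages with most reads in the IPs. CENPF (chr1:214603195-214664571 in RefSeq GRCh38.p14) had 26.2 FPKM in the lactate IP and 14.2 in the lactate input, with 67.3 in the vehicle IP and 21.4 in the vehicle input. It was higher in each IP than in its own input, at 0.84 in lactate cells (0.88 without a pseudocount, with a counting interval of 0.81 to 0.96) and 1.61 in vehicle cells (1.66 without a pseudocount, with a counting interval of 1.61 to 1.71), the highest ratio of FPKM + 1 of any member that entered each comparison. Without a pseudocount PMF1, at 1.05, was above it in lactate cells and ZW10, at 1.78, in vehicle cells. CENPE, a kinesin that carries chromosomes to the spindle equator (chr4:103105811-103198343), had 9.54 FPKM in the lactate IP and 10.9 in the lactate input, with 31.5 in the vehicle IP and 15.4 in the vehicle input. Its vehicle IP was the highest of the 4 libraries and its lactate IP the lowest, so that its ratio was −0.17 in lactate cells and 0.99 in vehicle cells.

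CENPF weighed heavily in the sum over all members. All 37 members together took 0.464% of nuclear reads in the lactate IP (Wilson interval 0.455% to 0.473%) and 0.428% in the lactate input (0.42% to 0.437%), and 0.545% in the vehicle IP (0.538% to 0.553%) and 0.426% in the vehicle input (0.421% to 0.432%). CENPF alone was 47.3% of the members' reads in the lactate IP (46.4% to 48.3%) and 18.5% in the lactate input (17.7% to 19.2%), and 47.4% in the vehicle IP (46.8% to 48.1%) and 18.7% in the vehicle input (18.2% to 19.2%). The other 36 members took 0.244% of nuclear reads in the lactate IP (0.238% to 0.251%) and 0.349% in the lactate input (0.342% to 0.357%), and 0.287% in the vehicle IP (0.282% to 0.292%) and 0.347% in the vehicle input (0.342% to 0.352%). With CENPF the members' share was higher in each IP than in its input, and without it the share was lower in each IP.

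Subunits that build 1 complex in equal numbers had messages on opposite sides. The NDC80 complex is a rod with the microtubule-binding heads of NDC80 and NUF2 at one end and SPC24 and SPC25 at the end anchored to the kinetochore. SPC24 (chr19:11145493-11155782) had 7.65 FPKM in the lactate IP and 4.22 in the lactate input, with 16.1 in the vehicle IP and 5.58 in the vehicle input. Both IPs were above both inputs, at 0.73 in lactate cells (0.86 without a pseudocount, with a counting interval of 0.56 to 1.16) and 1.38 in vehicle cells (1.53 without a pseudocount, with a counting interval of 1.33 to 1.74). SPC25, its partner in the same end of the rod, had 2.12 FPKM in the lactate IP and 5.68 in the lactate input, with 5.9 in the vehicle IP and 9.43 in the vehicle input. NDC80 had 6.54 FPKM in the lactate IP and 16.2 in the lactate input, with 16.0 in the vehicle IP and 29.2 in the vehicle input. NUF2 had 1.1 FPKM in the lactate IP and 6.36 in the lactate input, with 3.19 in the vehicle IP and 8.57 in the vehicle input. For these partners of SPC24 the IP lay below its own input in both conditions, with ratios from −1.81 (NUF2) to −1.1 (SPC25) in lactate cells and from −1.19 (NUF2) to −0.6 (SPC25) in vehicle cells.

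The MIS12 complex, which joins the inner kinetochore to NDC80 and KNL1, divided in the same way. DSN1 had 4.69 FPKM in the lactate IP and 2.94 in the lactate input, with 8.47 in the vehicle IP and 6.59 in the vehicle input. PMF1 had 1.99 FPKM in the lactate IP and 0.959 in the lactate input, with 3.38 in the vehicle IP and 2.0 in the vehicle input. Both were higher in each IP than in its input, at 0.53 and 0.61 in lactate cells and at 0.32 and 0.54 in vehicle cells, and the interval of PMF1 in lactate cells, on 76 and 27 reads, was wide (1.05 without a pseudocount, with a counting interval of 0.4 to 1.74). PMF1 shares its locus with the read-through gene PMF1-BGLAP, so their reads cannot be told apart here. MIS12 had 0.626 FPKM in the lactate IP and 1.64 in the lactate input, with 1.42 in the vehicle IP and 2.75 in the vehicle input. NSL1 had 0.703 FPKM in the lactate IP and 2.52 in the lactate input, with 1.03 in the vehicle IP and 2.94 in the vehicle input. Both lay lower in each IP than in its input, at −0.7 and −1.05 in lactate cells and at −0.63 and −0.96 in vehicle cells.

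KNL1, the scaffold on which the BUB proteins assemble (chr15:40594249-40664342), had 1.52 FPKM in the lactate IP and 2.22 in the lactate input, with 5.84 in the vehicle IP and 2.72 in the vehicle input. Its lactate IP was below and its vehicle IP above the input, at −0.35 in lactate cells and 0.88 in vehicle cells. ZWINT, which binds KNL1, had 2.99 FPKM in the lactate IP and 8.17 in the lactate input, with 6.21 in the vehicle IP and 11.6 in the vehicle input, lower in each IP at −1.2 in lactate cells and −0.81 in vehicle cells.

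All checkpoint messages that entered the comparisons lay below the median gene in both conditions. TTK, the kinase also called MPS1 that starts the checkpoint signal, had 1.35 FPKM in the lactate IP and 5.96 in the lactate input, with 2.36 in the vehicle IP and 8.61 in the vehicle input. BUB3, the adaptor that brings BUB1 and BUB1B to KNL1, had 3.49 FPKM in the lactate IP and 10.7 in the lactate input, with 6.56 in the vehicle IP and 15.4 in the vehicle input. In both genes each IP was at least 2-fold lower than its input, at −1.57 and −1.38 in lactate cells and −1.52 and −1.12 in vehicle cells. BUB1, a checkpoint kinase, had 0.856 FPKM in the lactate IP and 1.89 in the lactate input, with 2.48 in the vehicle IP and 2.71 in the vehicle input. BUB1B, a part of the complex that inhibits CDC20, had 1.99 FPKM in the lactate IP and 5.71 in the lactate input, with 5.18 in the vehicle IP and 6.88 in the vehicle input. For BUB1 and BUB1B the lactate IP lay farther below its input, at −0.64 and −1.17, than the vehicle IP did, at −0.09 and −0.35. MAD2L1, which binds and inhibits CDC20, had 0.621 FPKM in the lactate IP and 0.697 in the lactate input, with 0.253 in the vehicle IP and 0.884 in the vehicle input. These values rest on 52 reads in the lactate IP, 43 in the lactate input, 19 in the vehicle IP and 86 in the vehicle input.

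The RZZ complex, which brings dynein and the checkpoint protein MAD1 to kinetochores, is made of ZW10, ZWILCH and KNTC1. ZW10 had 0.655 FPKM in the lactate IP and 0.552 in the lactate input, with 2.74 in the vehicle IP and 0.798 in the vehicle input. Only its vehicle IP reached 1 FPKM, so it entered the vehicle comparison through the library where it was high, at 1.06 (1.78 without a pseudocount, with a counting interval of 1.25 to 2.34), and did not enter the lactate comparison. ZWILCH had 1.87 FPKM in the lactate IP and 8.74 in the lactate input, with 4.18 in the vehicle IP and 13.4 in the vehicle input, low in both IPs at −1.76 in lactate cells and −1.47 in vehicle cells. KNTC1 ranged between 0.116 FPKM in the lactate IP and 0.596 in the vehicle input.

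The SKA complex, which keeps kinetochores on shortening microtubules, held a message that was among the lowest in both IPs relative to the inputs. SKA2 (chr17:59109857-59155186) had 1.55 FPKM in the lactate IP and 10.6 in the lactate input, with 3.68 in the vehicle IP and 21.2 in the vehicle input. Both IPs were far below both inputs, at −2.18 in lactate cells (−2.77 without a pseudocount, with a counting interval of −3.15 to −2.41) and −2.24 in vehicle cells (−2.52 without a pseudocount, with a counting interval of −2.77 to −2.29). The RefSeq annotation places MIR301A and MIR454 within its locus. SKA3 had 0.791 FPKM in the lactate IP and 4.36 in the lactate input, with 1.25 in the vehicle IP and 6.34 in the vehicle input. It was like SKA2, at −1.58 in lactate cells and −1.71 in vehicle cells (−2.34 without a pseudocount, with a counting interval of −2.8 to −1.92). SKA1 had 4.74 FPKM in the lactate IP and 7.53 in the lactate input, with 10.5 in the vehicle IP and 10.5 in the vehicle input. The vehicle IP and its input were thus nearly equal, and the lactate IP lay below its input at −0.57.

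**Figure D2:**
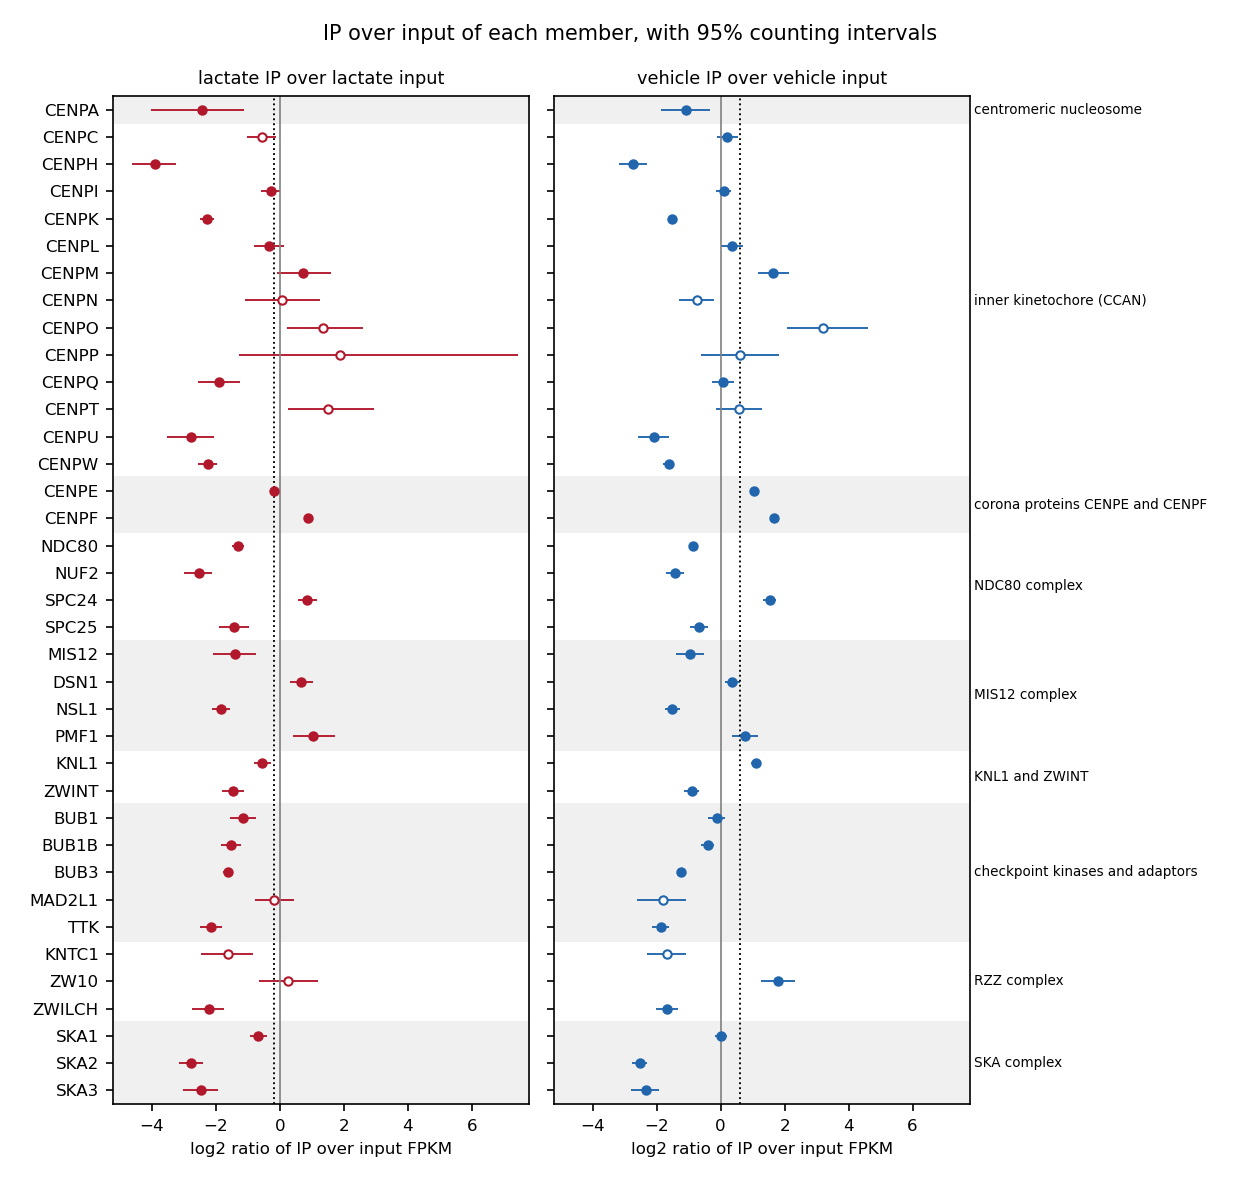
Log2 ratio of IP over input FPKM, without a pseudocount, for each message in lactate cells (left) and vehicle cells (right), with bars for the 95% counting interval. Open points did not reach 1 FPKM in either library of that comparison, the solid line is 0 and the dotted line the median of all genes tested, −0.17 in lactate cells and 0.62 in vehicle cells; most filled points lie left of the dotted line in both panels.

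The longest members had a higher median ratio than the shortest, while members of middle length were close to the shortest. Over gene lengths recovered from the table, which are the smallest that fit its values, the 8 members above 5000 bp in lactate cells had a median ratio of −0.27, against −1.24 for the 8 up to 2500 bp. In vehicle cells the 9 members above 5000 bp had a median of 0.11, against −0.70 for the 8 up to 2500 bp. Between these lengths the median was −1.19 for 13 members in lactate cells and −0.73 for 14 in vehicle cells. The ranges overlapped, as the longest members in lactate cells ran from −1.38 to 0.84 and the shortest from −2.67 to 0.41. In vehicle cells the longest ran from −1.12 to 1.61 and the shortest from −2.18 to 1.22. For all protein-coding genes the same contrast was −0.03 against −0.14 in lactate cells and 0.49 against 0.28 in vehicle cells. Across members, Spearman's rho between length and ratio was 0.25 in lactate cells (29 genes) and 0.18 in vehicle cells (31 genes), a description across genes that share their libraries.

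In the inputs, the kinetochore and checkpoint messages were lower after lactate by about as much as the median gene. Of 30 members that entered, 0 were counted as higher and 1 as lower, where 1.76% of all genes were higher and 6.46% lower. All 30 had a ratio below 0, with a median of −0.44, and the median of all genes was −0.43, so that 16 lay below and 14 above the median gene. Rescaled to equal totals of nuclear genes the members' median was 0.04 and that of all genes 0.01. In a bulk input fewer dividing cells and less of each message per cell cannot be told apart.

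CENPW was the member counted as lower, at −1.01 (−1.03 without a pseudocount, with a counting interval of −1.2 to −0.87). It lay at −0.58 relative to the median gene, and the count was 0 on that basis, where 2.68% of all genes were higher and 1.36% lower, and also with equal totals of nuclear genes and with a pseudocount of 5. On the FPKM + 1 scale DSN1 and SKA2 followed at −0.95 (−1.16 without a pseudocount, with a counting interval of −1.52 to −0.82) and −0.94 (−1.0 without a pseudocount, with a counting interval of −1.17 to −0.83). The ratios nearest to 0 were those of CENPC at −0.14, CENPL at −0.16 and NSL1 at −0.16. Without a pseudocount the interval of CENPC ran from −0.69 to 0.10, that of CENPL from −0.67 to 0.14 and that of NSL1 from −0.40 to −0.04. Of the 30 intervals, 4 lay wholly below the median gene, 6 wholly above it and 20 spanned it. For all genes this split was not worked out.

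Between the IPs, every member that entered was lower in the lactate IP than in the vehicle IP, as was the median gene. Of 29 members, 10 were counted as lower, at 2-fold or more, and 0 as higher, where 1.64% of all genes were higher and 27.7% lower. Their median was −0.91 and that of all genes −0.74, and relative to the median gene 0 members were counted in either direction, where 3.66% of all genes were higher and 2.61% lower. CENPQ (−1.63), CENPE (−1.62) and CENPW (−1.55) were the lowest on the FPKM + 1 scale.

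The change in enrichment, lactate cells minus vehicle cells, had a median of −0.42 over 31 members, against −0.36 for all genes. Of the members 0 were counted as higher and 3 as lower, where 3.04% of all genes were higher and 9.56% lower. Relative to the median gene 0 members were counted in either direction, where 5.11% of all genes were higher and 3.28% lower, so all 3 calls ended there. With equal totals of nuclear genes 0 were higher and 1 lower, where 5.79% of all genes were higher and 3.96% lower. The 3 were CENPQ at −1.33 (−1.96 without a pseudocount, with a counting interval of −2.66 to −1.26), KNL1 at −1.23 (−1.65 without a pseudocount, with a counting interval of −1.95 to −1.35) and CENPE at −1.16 (−1.23 without a pseudocount, with a counting interval of −1.36 to −1.1). At the other end DSN1 was at 0.21, SKA3 at 0.13 and PMF1 at 0.06, each with an interval that spanned 0. Below the filter, MAD2L1 had a change of 1.64 without a pseudocount (0.71 to 2.56), resting on the 19 reads of its vehicle IP.

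**Figure D3:**
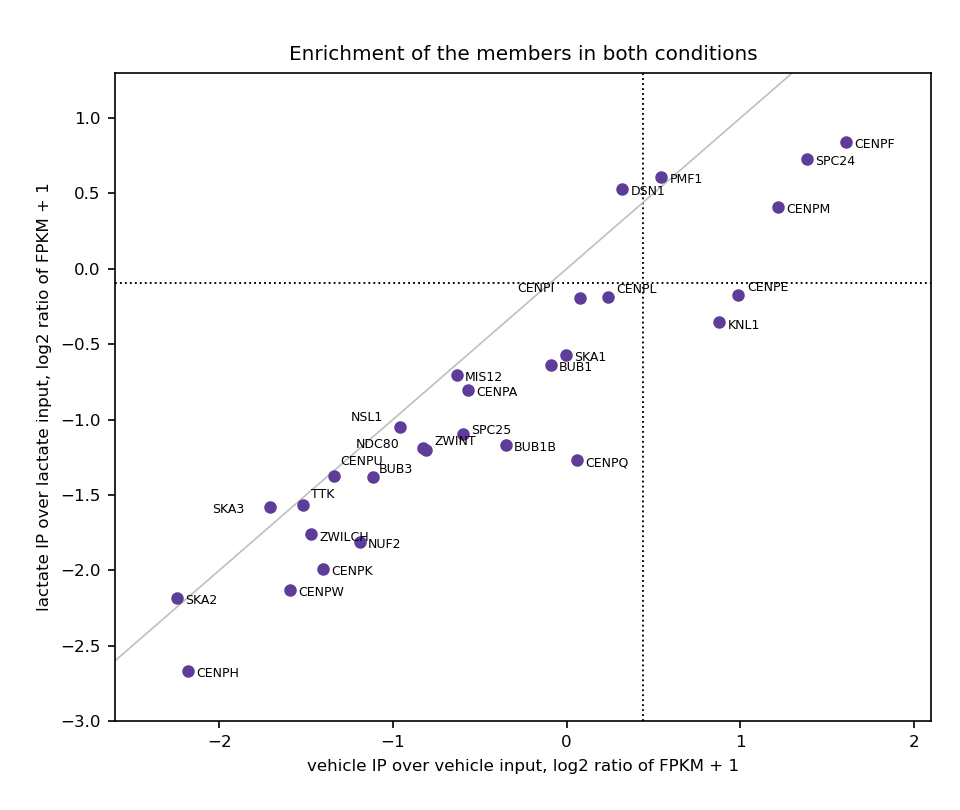
Log2 ratio of IP over input FPKM + 1 in lactate cells (vertical) against vehicle cells (horizontal) for the 29 messages that entered both comparisons; dotted lines mark the medians of all genes tested, −0.10 and 0.44, and the grey line marks equal ratios. The 22 points to the lower left of both dotted lines are below the median gene in both conditions, CENPF, SPC24, CENPM and PMF1 are above it in both, and CENPQ, KNL1 and CENPE lie farthest below the grey line.

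The authors called peaks of each IP against its own input, 48104 in the lactate list and 95785 in the vehicle list. Their fold enrichment and q-value per peak are the authors' own and describe peaks within a list. Members had 90 peaks in 27 genes in the lactate list and 187 peaks in 31 genes in the vehicle list. Among members that entered the gene comparison, 21 of 29 had a peak in the lactate list and 26 of 31 in the vehicle list, where 71.7% and 84.2% of all genes tested had one. Counting peaks in exons or untranslated regions (UTRs), it was 15 of 29 in the lactate list and 23 of 31 in the vehicle list, where 61.5% and 78.4% of all genes tested had one.

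The members' peaks lay in exons more often than peaks of protein-coding genes at large, and most of the exon peaks belonged to CENPF, CENPE and KNL1. Exons held 47.8% of the members' peaks in the lactate list and 48.1% in the vehicle list, while they held 18.8% of all protein-coding peaks in the lactate list and 21.0% in the vehicle list. CENPF, CENPE and KNL1 supplied 60.5% of the members' exon peaks in the lactate list and 58.9% in the vehicle list. Members without a peak in the lactate list were CENPH, CENPM, CENPN, CENPW, SPC25, MIS12, BUB3, ZWINT, ZW10 and SKA3, and in the vehicle list CENPK, CENPW, NUF2, BUB3, MAD2L1 and ZWINT. CENPW, BUB3 and ZWINT, each above the members' median FPKM in both inputs (2.94 in the lactate input and 5.21 in the vehicle input), were thus without a peak in both lists.

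**Figure D4:**
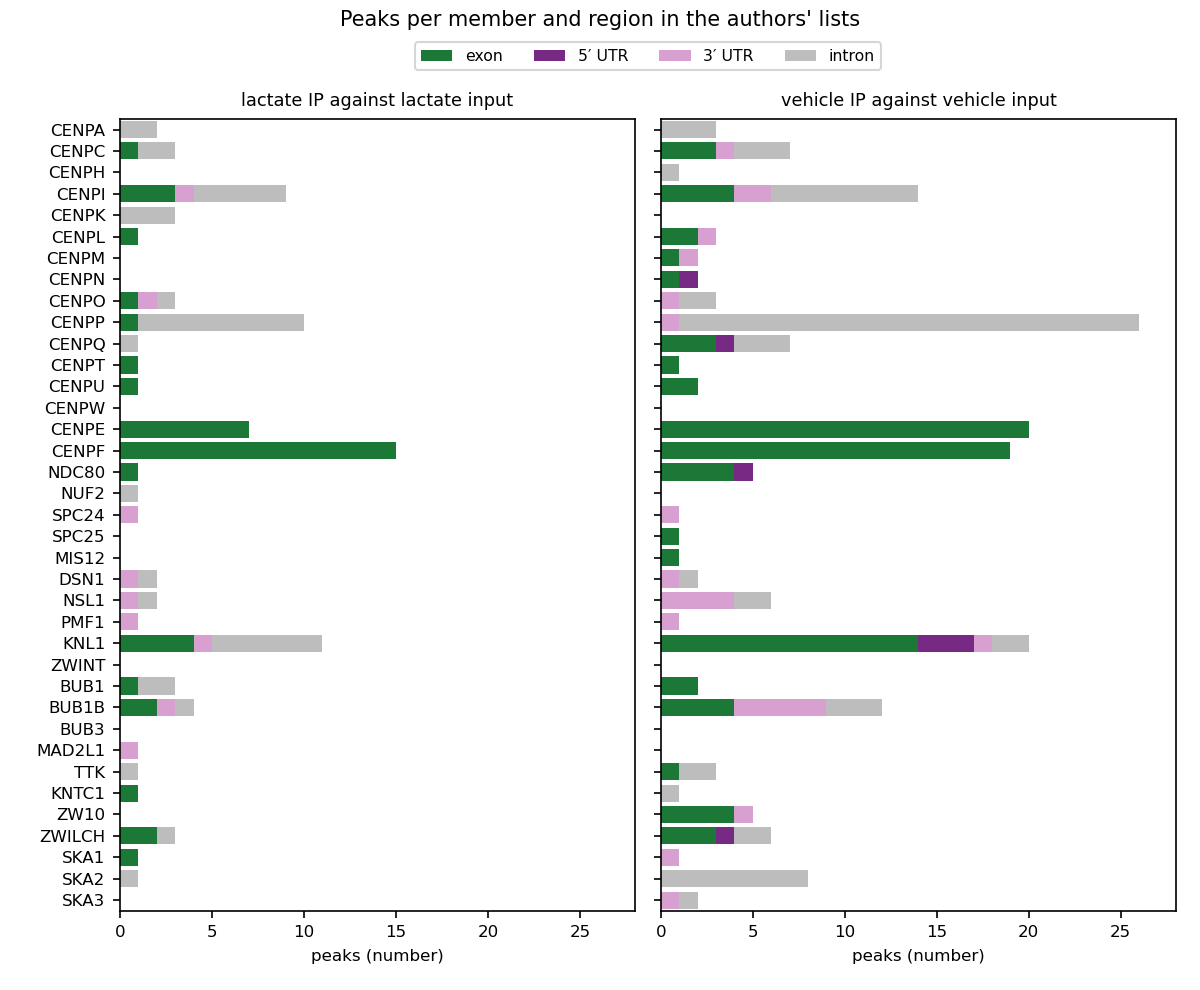
Number of peaks per message in the authors' lactate list (left) and vehicle list (right), with bars stacked by annotated region. CENPF, with 15 peaks in the lactate list and 19 in the vehicle list, and CENPE, with 7 and 20, have exon peaks only, while the 26 CENPP peaks of the vehicle list include 25 in introns.

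CENPF had the most peaks in the lactate list, 15, all in exons, of which 13 had q under 0.05. It also had the highest fold of any member in each list. In the lactate list its peak at chr1:214651523-214651938, a stretch of 416 bp in an exon, had a fold of 11.5. In the vehicle list its peak at chr1:214651523-214652039, which starts at the same base, had a fold of 32.5, and the peak at chr1:214648516-214648996 had one of 31.4. Within each list the higher folds of CENPF lay in the downstream part of the gene. In the lactate list the 5 most upstream peaks, with summits from 11.8 to 25.9 kb beyond the 5′ end of the gene, had folds between 1.73 and 4.04, and the 7 with summits from 38.4 to 48.5 kb had folds between 3.99 and 11.5. Those at 34.8, 36.8 and 49.7 kb had folds of 1.55, 2.92 and 2.01.

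The CENPF peaks of highest fold differed in their IP read density. In the authors' comparison of the IPs, the normalized read density at chr1:214651523-214652039 was 8.05 in the lactate IP and 18.3 in the vehicle IP. At chr1:214621924-214622436, with a fold of 4.57 in the vehicle list, it was 390 in the lactate IP and 335 in the vehicle IP. At chr1:214648516-214648996, with a fold close to that of the first site, it was 92.1 in the lactate IP and 110 in the vehicle IP. A high fold thus went with a low density in both IPs at the first of these sites, and with an intermediate one at the last.

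CENPE had 7 peaks in the lactate list and 20 in the vehicle list, all in exons. Its highest was the same site in each, 81.6 kb from the 5′ end in the lactate list and 81.7 kb in the vehicle list, at chr4:103116655-103116854 with a fold of 3.39 in the lactate list and at chr4:103116425-103116871 with a fold of 9.43 in the vehicle list. KNL1 had 11 peaks in the lactate list and 20 in the vehicle list. Of these, 4 were in exons in the lactate list and 14 in the vehicle list. Its highest fold was 6.22 in the lactate list (chr15:40622935-40623448) and 18.8 in the vehicle list (chr15:40645534-40645948), at different exons.

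**Figure D5:**
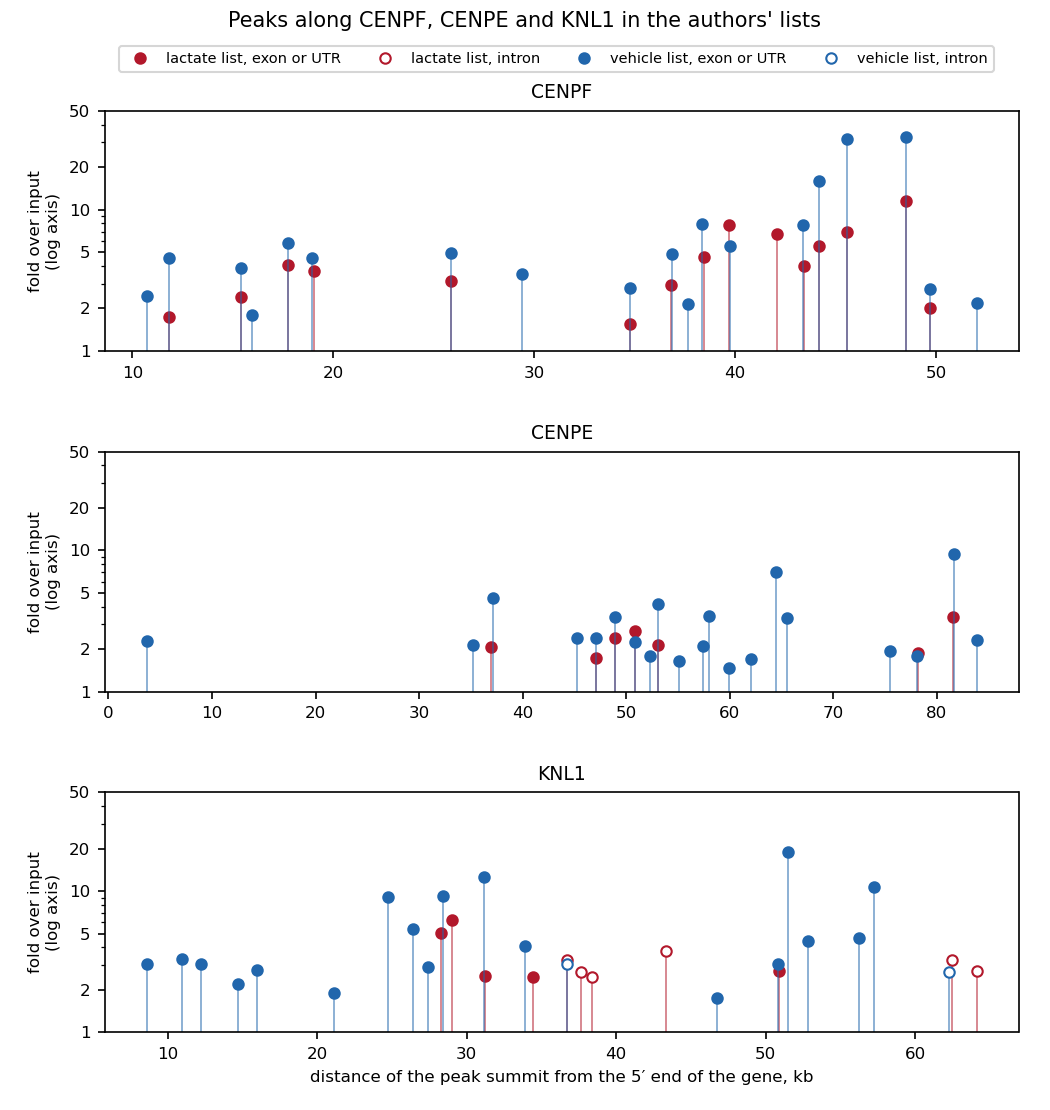
Fold enrichment over input (log axis) of each peak of CENPF, CENPE and KNL1 in the authors' lists, lactate in red and vehicle in blue, against the distance of its summit from the 5′ end of the gene in kb; open points are intron peaks. In CENPF the highest folds, 11.5 in the lactate list and 32.5 in the vehicle list, lie 48.5 kb from the 5′ end, and in KNL1 all intron peaks lie from 36.7 kb on.

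SPC24, PMF1 and DSN1, higher in each IP than in its input, each had a 3′ UTR peak in both lists. So did BUB1B and NSL1, lower in each IP, CENPI and KNL1, with opposite signs, and CENPO, below 1 FPKM in every library. The region is that of the authors' annotation. For BUB1B and KNL1 the vehicle list also had exon peaks farther downstream in the gene. CENPF and CENPM, also higher in each IP, lacked a 3′ UTR peak in the lactate list. SPC24 had 1 peak in each list, in its 3′ UTR, at chr19:11145951-11146286 with a fold of 2.21 in the lactate list and at chr19:11145491-11146302 with a fold of 4.51 in the vehicle list. PMF1 also had 1 peak in each list, with a fold of 3.0 in the lactate list and 2.84 in the vehicle list, and both summits lay in PMF1-BGLAP as well. The 3′ UTR peak of DSN1 had a fold of 4.98 in the lactate list and 3.0 in the vehicle list, and DSN1 had 1 intron peak in each list at different places. ZW10 had 5 peaks in the vehicle list, 4 in exons and 1 in the 3′ UTR, and 0 in the lactate list.

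Several peaks assigned to members lie where another gene also does. CENPP had the most peaks in the vehicle list, 26, of which 25 were in introns, and its level was at most 0.11 FPKM. The summits of 5 of its 10 lactate-list peaks and of 10 of its 26 vehicle-list peaks lay inside other RefSeq genes, among them ECM2, OGN, ASPN and IPPK. For BUB1B the summits of all 4 lactate-list peaks and of 9 of 12 vehicle-list peaks lay inside LOC107984763. The highest CENPO peak, in its 3′ UTR with a fold of 11.4 in the vehicle list, lay inside ADCY3. The CENPA peaks were annotated as intron, but all had summits outside the RefSeq gene. Both of the lactate list and 1 of the vehicle list lay upstream of its start, and the other 2 of the vehicle list lay beyond its end. In all, 11 of 90 peaks in the lactate list and 21 of 187 in the vehicle list had a summit within another RefSeq gene, and 18 of the 37 members overlap another gene.

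By fold and by q-value the members' peaks were much like the rest of the lists. The median fold was 2.96 in the lactate list, against 3.24 for all its peaks, and 3.03 in the vehicle list, equal to that of all its peaks. A q under 0.05 was given to 38 peaks (42.2%) in the lactate list, where 42.7% of all peaks had one, and to 97 (51.9%) in the vehicle list, where 48.6% had one. Of the 90 lactate-list peaks 53 (58.9%) overlapped a vehicle-list peak by at least 1 bp, and of the 187 vehicle-list peaks 51 (27.3%) overlapped a lactate-list peak. Over all peaks these shares were 56.4% and 27.8%.

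The authors' comparison of the lactate IP with the vehicle IP gave a normalized log2 ratio, M, at 224 peaks in 34 members. Their median M was −0.65, and that of all 116484 peaks was −0.50. M was below 0 at 163 of the 224, where 65.9% of all peaks were below 0. At 51 peaks listed as common to both IPs the median was −0.30, with 35 below 0. Common peaks over the whole genome had a median of 0.0033, with 49.9% below 0. Of the 51, CENPF held 14, CENPE 7 and KNL1 5, so these genes weigh heavily in the members' values. In CENPE all 20 peaks had M below 0, with a median of −1.35. In CENPF 16 of 19 were below 0, with a median of −0.32 and a range of −1.36 to 0.63. In KNL1 18 of 25 were below 0, a share not far above that of all peaks, with a median of −0.73. Peaks listed for 1 IP alone had medians of 1.36 (37 peaks, lactate IP) and −1.41 (136 peaks, vehicle IP), a direction that follows largely from how they were listed.

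Pooled, the genes that work around the kinetochore had medians of IP over input above those of its own genes. Their medians were below those of all genes, narrowly so in lactate cells, and several of the sets below were above those of all genes. Of 84 such genes, listed with earlier results of these data known, 58 entered the lactate comparison of IP over input, with 8 higher and 18 lower and a median of −0.16. The median of all genes was −0.10 there, with 16% higher and 23.3% lower. In vehicle cells 61 entered, with 18 higher and 8 lower and a median of 0.20, against 0.44 for all genes, of which 27.6% were higher and 15.3% lower. In the inputs 57 entered, with 0 higher and 1 lower and a median of −0.45, against −0.43 for all genes.

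Cohesin and condensin, the ring complexes that hold and compact chromatids, had medians of −0.04 and 0.35 in lactate cells and of 0.99 and 1.11 in vehicle cells. SMC1A, a core cohesin subunit, was the highest cohesin gene in vehicle cells at 2.15, and PTTG1 (securin), the inhibitor of separase, the lowest at −1.59. The other inner kinetochore and CENPA-loading genes had medians of −0.90 in lactate cells, there the nearest of these sets to the members, and −0.26 in vehicle cells. Among them ITGB3BP, a subunit of the CCAN, was the lowest at −1.68 in lactate cells and −1.31 in vehicle cells, and CENPB, which binds centromeric DNA, the highest at 1.23 in lactate cells and 1.78 in vehicle cells. The other checkpoint and corona genes had medians of 0.03 in lactate cells and 0.38 in vehicle cells, with CLIP1, a microtubule plus-end protein, highest at 1.36 in lactate cells and 2.29 in vehicle cells.

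The anaphase-promoting complex is the ubiquitin ligase that the checkpoint holds back. Its genes had medians of −0.48 in lactate cells and −0.34 in vehicle cells, there the nearest of these sets to the members. The E2 enzyme UBE2C was the lowest of them at −2.65 in lactate cells and −1.36 in vehicle cells, and the subunit ANAPC5 the highest at 0.65 in lactate cells and 1.22 in vehicle cells. The chromosomal passenger and shugoshin genes had medians of 0.12 in lactate cells and 0.25 in vehicle cells. SGO1, a protector of cohesin, was their lowest at −1.92 in lactate cells and −0.88 in vehicle cells, and BIRC5 (survivin) their highest at 1.14 in lactate cells and 1.43 in vehicle cells. Spindle motors and assembly factors had medians of −0.05 in lactate cells and 0.56 in vehicle cells. Their ends were kinesins, KIF20A at −1.64 in lactate cells and −1.94 in vehicle cells and KIF4A at 1.03 in lactate cells and 1.89 in vehicle cells.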

How the data were processed

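Per the submitters' processing notes, the build was GRCh38 and the named tools were HISAT2 2.1.0, fastp 0.20.1, HOMER 4.11.1, MACS2 2.2.7.1, DiffBind and bedtools 2.29.2. The tool that counted reads per gene and its use of strand were not given in the sources used here. Libraries were made with the SMART-Seq v4 kit, per the labels' protocols. The authors deposited gene values in FPKM, and peak lists of each IP against its input with a fold enrichment (ratio), a p-value, a q-value and the −log10 of each, per the file headers. A comparison of the IPs gave, per the file headers, a normalized read density (signal) per library and a log2 ratio M. Its P column was not used.

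Whole reads were recovered from steps in the FPKM values. Of 72387 values above 0, 99.99% came out whole within 1e-06 reads, as the smallest whole numbers that fit, so a gene's reads and length can be understated. On simulated counts the same script recovered the library totals. Ratios used a pseudocount of 1 FPKM and a filter of 1 FPKM in at least 1 compared library. Counting intervals are exact binomial on recovered reads, with a normal approximation for the change in enrichment, and cover counting error only, since the kit adds no molecular identifiers. The design has 1 library per group, so no test was run.

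The members and gene lists were chosen with earlier results of these data known. Named members were all those at 1 FPKM or more, the 3 highest and 3 lowest per comparison, and those with the most peaks or the highest fold. Peak coordinates are 1-based, and gene positions and overlaps were read from RefSeq GRCh38.p14. Peak sequences are not shown, since no genome was used here. Alternatives varied the pseudocount, filter, centring, scaling, peak threshold and overlap. Scripts ran in Python 3.11.15 with pandas 2.3.3 and scipy 1.17.1.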

Additional observations from a re-analysis of the deposited data

Results flagged for a closer look

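In 5 of the 29 messages that entered both comparisons the ratio of IP over input had opposite signs in lactate and vehicle cells, which is what marked them here, where 14.6% of all 6824 genes had opposite signs. For CENPE and KNL1 both counting intervals, without a pseudocount, lay on their own side of 0. That 0 is set by whole-library FPKM, and nuclear genes took 13.9% of the lactate IP and 20.9% of the lactate input. With equal totals of nuclear genes the median of all genes in lactate cells moved from −0.10 to 0.50. Signs on that scale were not worked out for single members, and lactate ratios little below 0 need not keep theirs. The signs are thus given for the FPKM scale only. For CENPQ the interval spanned 0 in vehicle cells (−0.27 to 0.42), for CENPL in lactate cells (−0.79 to 0.12), and for CENPI in both (−0.57 to 0.01 in lactate cells and −0.13 to 0.33 in vehicle cells), so that their direction is not settled at this depth. CENPC also had opposite signs, but it did not enter the lactate comparison. Each rests on 1 library per group, so the difference was not tested.

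CENPE had a log2 ratio of −0.17 in lactate cells and 0.99 in vehicle cells, a change of −1.16. KNL1 had −0.35 in lactate cells and 0.88 in vehicle cells, a change of −1.23. CENPQ had −1.27 in lactate cells and 0.06 in vehicle cells, a change of −1.33, on 29 reads in the lactate IP. CENPL had −0.19 in lactate cells and 0.24 in vehicle cells, a change of −0.42, and CENPI −0.19 in lactate cells and 0.08 in vehicle cells, a change of −0.27. The median gene changed by −0.36, beside a share of nuclear reads of 13.9% in the lactate IP and 30.3% in the vehicle IP, whose part in these values was not tested.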

How the results depend on the processing

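Of 98 recomputed values, 64 moved from the reported one by less than the counting error (for medians, the typical half-width of the members' intervals) or, for counts, within 1.5 times of it, and 34 moved. In both IP over input comparisons the members' median stayed below that of all genes under every alternative run, by 0.45 to 1.29 in lactate cells and by 0.41 to 1.29 in vehicle cells. Centring on the median gene leaves this difference unchanged by construction. The cause of the other moves was not tested, apart from what a setting does by construction.

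For lactate IP over lactate input, the main median of −1.1 became −0.49 with a pseudocount of 5, −0.64 with no filter and −0.68 with equal totals of nuclear genes. The 16 lower members became 4 with a pseudocount of 5, and 9 (with 4 higher) with equal nuclear totals.
For vehicle IP over vehicle input, the median of −0.57 became −0.22 with a pseudocount of 5 and −1.01 relative to the median gene. The 4 higher and 10 lower members became 1 and 5 with a pseudocount of 5, and 1 and 16 relative to the median gene.
For the inputs, the median of −0.44 became −0.0082 relative to the median gene and 0.042, with the sign turned, with equal nuclear totals. The 1 lower member became 2 with a pseudocount of 0.1, and 0 with a pseudocount of 5, relative to the median gene and with equal nuclear totals.
For lactate IP over vehicle IP, the median of −0.91 became −0.45 with a pseudocount of 5, −0.16 relative to the median gene and −0.056 with equal nuclear totals. The 10 lower members became 20 with a pseudocount of 0.1, 3 with one of 5, and 0 under either rescaling. With a pseudocount of 0.1 the median of all genes was itself past the fold counted, at −1.06.
For the change in enrichment, the median of −0.42 became −0.66 with a pseudocount of 0.1, −0.17 with one of 5, −0.067 relative to the median gene and −0.081 with equal nuclear totals, and the 3 lower members became 8 with a pseudocount of 0.1, 0 with one of 5, 0 relative to the median gene and 1 with equal nuclear totals.

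Members with a peak in the lactate list were 17 at q under 0.05 and 8 at a fold of at least 5, against 27 in all, and in the vehicle list 13 at a fold of at least 5, against 31. The share of lactate-list peaks that overlapped a vehicle-list peak was 36.7% when each peak had to be covered by 50% or more, and 86.8% at q under 0.05 in both lists, against 58.9%. No paired analysis was possible because each group holds 1 library. No replicate could be left out for the same reason, and depth limits the messages with few reads, such as CENPP.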
